A study of Homo sapiens with 19 samples.

Results

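GFI1 and GFI1B are 2 of the 20007 protein-coding genes measured, and they were chosen by name. All peaks in the gene body and the 50 kb on either side were taken, and the number of base pairs under peaks in that window was the measured quantity. GFI1 (ENSG00000162676.13) lies on chromosome 1 from 92473043 to 92486925, on the minus strand of hg38, and its window runs from 92423043 to 92536925. GFI1B (ENSG00000165702.15) lies on chromosome 9 from 132944000 to 132991687, on the plus strand, and its window runs from 132894000 to 133041687. Positions are counted from 1 and genes follow GENCODE release 44.

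The cells were MOLM-13, an established human acute myeloid leukaemia line, given Corin, a dual inhibitor of the demethylase LSD1 and of class I histone deacetylases in the CoREST complex, or the vehicle DMSO. Both treatments lasted 24 h. The labels give 0.1 µM for Corin and print the same figure for DMSO, where its meaning is unclear. CUT&RUN, in which an antibody guides a nuclease to a chromatin mark, was done for H3K27ac, H3K4me2 and H3K4me3, with 2 libraries per mark and treatment, so 12 peak lists in all. The labels name 1 cell line and do not say whether replicates were separate cultures, so p-values measure the spread between these libraries, which may be technical.

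A further 7 libraries, made with IgG (2), with an LSD1 antibody (1) or under all-trans retinoic acid with Corin (4), are not used here. H3K27ac lists held 17599 to 19995 peaks after DMSO and 30029 to 34424 after Corin. H3K4me2 lists held 30896 to 32299 and 40042 to 41152, and H3K4me3 lists 11104 to 11343 and 11757 to 11883. The labels give read lengths of 150 bp and a stated minimum number of reads, and the depth of each library is unknown. An H3K4me3 peak lay within 1 kb of the start site in all 4 lists at 6 of 8 myeloid marker genes (SPI1, CEBPA, CD33, FLT3, LYZ and CSF3R) and in none at MPO and ITGAM. None of the 6 erythroid or megakaryocytic, 3 B-cell, 3 T-cell and 3 epithelial markers had such a peak in any list. Of all 20007 genes, 48.4% had such a peak in all 4 lists and 47.6% in none.

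GFI1 and GFI1B are closely related zinc finger repressors. Each carries at its amino terminus a short SNAG domain that resembles the tail of histone H3 and binds LSD1, and through it the CoREST complex is brought to target genes, where LSD1 removes methyl groups from H3K4 and the deacetylases remove acetyl groups. GFI1 acts in stem cells, granulocyte and lymphoid development, GFI1B in the erythroid and megakaryocytic lineages, and both are known to repress their own and each other's genes. H3K27ac marks active promoters and enhancers, H3K4me2 both promoters and enhancers, and H3K4me3 mostly promoters.

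The loci differed in where they carried the marks, and 6 stretches show it. They were read from RefSeq promoters (GRCh38.p14, 250 bases before to 49 after the start) and from the hg38 genome, and both members matched a RefSeq promoter. Capitals mark the letters AATC, the core of the GFI1 and GFI1B recognition site, on either strand. The promoters at the canonical start of GFI1 (chr1:92486876-92487175, minus strand) and of GFI1B (chr9:132978444-132978743, plus strand) are set beside an internal GFI1 promoter (chr1:92483765-92484064, minus strand) at which H3K4me2 differed between the treatments.
GFI1 canonical promoter: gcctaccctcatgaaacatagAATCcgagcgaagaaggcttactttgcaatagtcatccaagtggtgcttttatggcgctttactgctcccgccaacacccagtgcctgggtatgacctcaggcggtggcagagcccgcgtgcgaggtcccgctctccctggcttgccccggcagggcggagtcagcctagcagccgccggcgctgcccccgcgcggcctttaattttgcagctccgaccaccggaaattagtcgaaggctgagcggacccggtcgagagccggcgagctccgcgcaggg
GFI1 internal promoter: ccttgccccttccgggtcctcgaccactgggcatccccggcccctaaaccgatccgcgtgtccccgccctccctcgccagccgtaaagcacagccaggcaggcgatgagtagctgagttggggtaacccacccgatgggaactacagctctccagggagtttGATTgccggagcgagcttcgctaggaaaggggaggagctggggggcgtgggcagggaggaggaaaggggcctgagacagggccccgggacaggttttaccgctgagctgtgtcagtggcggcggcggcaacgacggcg
GFI1B canonical promoter: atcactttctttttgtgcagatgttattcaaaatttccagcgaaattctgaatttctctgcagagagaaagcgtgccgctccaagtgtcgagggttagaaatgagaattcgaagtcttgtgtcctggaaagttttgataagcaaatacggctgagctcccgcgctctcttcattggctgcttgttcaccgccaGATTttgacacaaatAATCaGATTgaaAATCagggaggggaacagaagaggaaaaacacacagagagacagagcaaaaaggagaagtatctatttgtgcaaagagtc
The distal stretches, all read on the plus strand, are the 204 bases inside EVI5 that lay under peaks in all 8 H3K27ac and H3K4me2 lists (chr1:92515842-92516045), the 227 bases downstream of GFI1 that lay under peaks in 7 of those 8 (chr1:92459619-92459845), and a 210-base H3K4me2 peak near the GFI1B start that was called in 1 list (chr9:132977873-132978082).
GFI1 upstream stretch in EVI5: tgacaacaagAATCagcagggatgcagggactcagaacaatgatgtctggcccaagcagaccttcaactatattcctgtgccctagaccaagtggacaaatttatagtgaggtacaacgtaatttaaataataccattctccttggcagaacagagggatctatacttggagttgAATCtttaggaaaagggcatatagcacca
GFI1 downstream stretch: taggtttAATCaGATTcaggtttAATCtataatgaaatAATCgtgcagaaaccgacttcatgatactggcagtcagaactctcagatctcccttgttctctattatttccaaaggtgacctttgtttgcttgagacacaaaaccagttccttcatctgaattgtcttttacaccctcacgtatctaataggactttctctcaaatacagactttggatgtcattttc
GFI1B single-list peak: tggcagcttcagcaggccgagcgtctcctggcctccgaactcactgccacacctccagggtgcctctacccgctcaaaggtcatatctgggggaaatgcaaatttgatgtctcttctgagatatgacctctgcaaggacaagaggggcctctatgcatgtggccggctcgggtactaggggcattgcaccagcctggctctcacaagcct

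All 300 bases of both GFI1 promoters shown were under H3K4me3 in each of the 4 lists, whereas the GFI1B canonical promoter was under a peak in none of the 12. AATC, in either orientation, occurred 1 time in each of these GFI1 promoters and 4 times in the GFI1B canonical promoter, and 69.0% of 35116 RefSeq promoters held it at least 1 time. This share and those below count presence alone, and shares by number of copies were not computed. The longer form AAATCA occurred 1 time in the GFI1B canonical promoter and in neither GFI1 promoter shown, against 13.2% of promoters, and TAAATCA in none, against 2.89%. AAATCA contains AATC, and TAAATCA contains both. The EVI5 stretch held 2 copies of AATC and the downstream stretch 4, where 63.1% and 66.7% of stretches of those lengths at the centres of 41573 H3K27ac regions held it. The GFI1B single-list peak printed held none. A second peak called in 1 list, inside GFI1B (chr9:132982230-132982544), held 3 copies of AATC and 1 of AAATCA, against 77.1% and 15.9% of stretches of its length holding each. AATC also occurred 1 time in the remaining GFI1 promoter (chr1:92486050-92486349) and 2 times in the remaining GFI1B promoter (chr9:132945281-132945580, beside TSC1). The latter also held AAATCA 1 time. Its bases lay under H3K4me2 alone, for 268 and 235 of 300 bp after Corin, against 60 and 216 bp after DMSO. The share of promoters separated in this way was not computed. The GC content was 63.3% for the canonical GFI1 promoter, 66.7% for the internal one and 42.3% for the GFI1B promoter.

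At GFI1, coverage was high among genes, with 12.1% to 23.9% of the window under H3K27ac peaks. H3K27ac covered 27185 and 18533 bp after Corin, against 13761 and 13863 bp after DMSO, the former with 12 and 13 peaks and the latter with 17 and 13. Both Corin lists lay above both DMSO lists, and the Corin lists also lay far apart. H3K4me2 covered 12408 and 10819 bp after Corin, against 9505 and 11447 bp after DMSO, with overlapping groups. H3K4me3 covered 10426 and 9934 bp after Corin, against 9667 and 9188 bp after DMSO, with Corin above DMSO by a narrow margin. The H3K27ac coverage exceeded that of 99.0% to 99.5% of the 20007 genes in each list, and the H3K4me3 coverage that of 96.0% to 97.2%. For H3K4me2 the share was 82.3% to 87.4%.

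**Figure D1:**
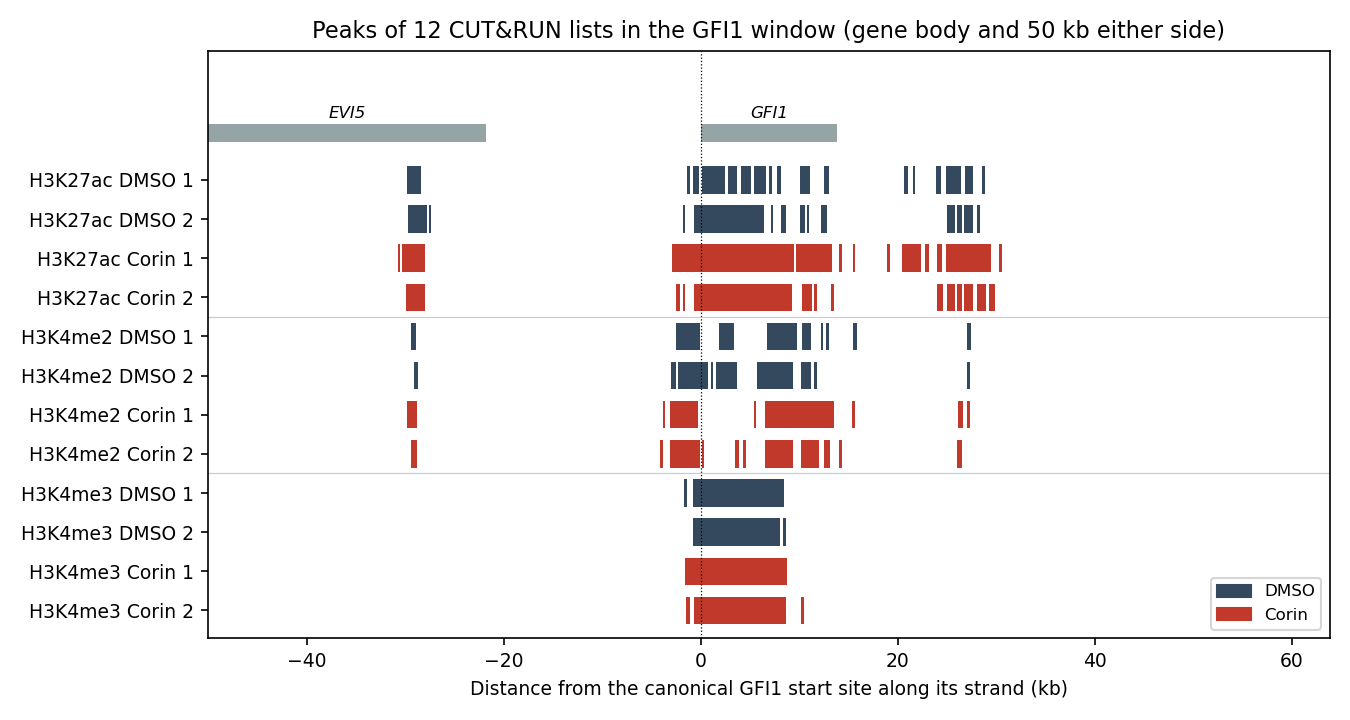
Peaks of the 12 lists in the GFI1 window, by distance in kb from the canonical GFI1 start along its strand (x axis), 1 row per library, with DMSO dark and Corin red and gene bodies in grey. H3K4me3 forms a block over the start and gene body, H3K4me2 lies toward both of its ends with fewer peaks inside it, and H3K27ac and H3K4me2 also lie upstream inside EVI5, around the stretch from -29120 to -28917 bp.

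At GFI1B, coverage was small and came almost wholly from clusters at the starts of TSC1, where GFI1B transcripts also begin, and of GTF3C5. H3K27ac covered 1199 and 1241 bp after Corin, against 461 and 623 bp after DMSO, again without overlap. H3K4me2 covered 4400 and 4160 bp after Corin, against 2782 and 4320 bp after DMSO, and H3K4me3 3190 and 2899 bp after Corin, against 3074 and 3431 bp after DMSO, with overlapping groups in both marks. Coverage exceeded that of 43.0% to 48.3% of genes for H3K27ac, 41.7% to 51.8% for H3K4me2 and 65.9% to 72.0% for H3K4me3, close to the middle of all genes for the first 2 marks.

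When peaks of all lists less than 1000 bp apart were joined, the GFI1B window held 4 clusters. The cluster from 132943328 to 132945548 spans the start of TSC1, a tumour suppressor that restrains mTORC1, at 132944616. The cluster from 133029151 to 133032512 spans the start of GTF3C5, a subunit of the RNA polymerase III factor TFIIIC, at 133030997. The former was marked in 11 of 12 lists and the latter in 12 of 12. Non-canonical GFI1B transcripts begin at 132944000 and 132945533 inside the TSC1 cluster and at 132945551 at its edge, and the peaks cannot tell these starts from that of TSC1. The other 2 clusters were single H3K4me2 peaks. A peak of 210 bp, from -821 to -612 bp relative to the canonical GFI1B start, was called after Corin in replicate 2. A peak of 315 bp, 3536 to 3850 bp downstream of that start in an intron (132982230 to 132982544), was called after Corin in replicate 1.

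**Figure D2:**
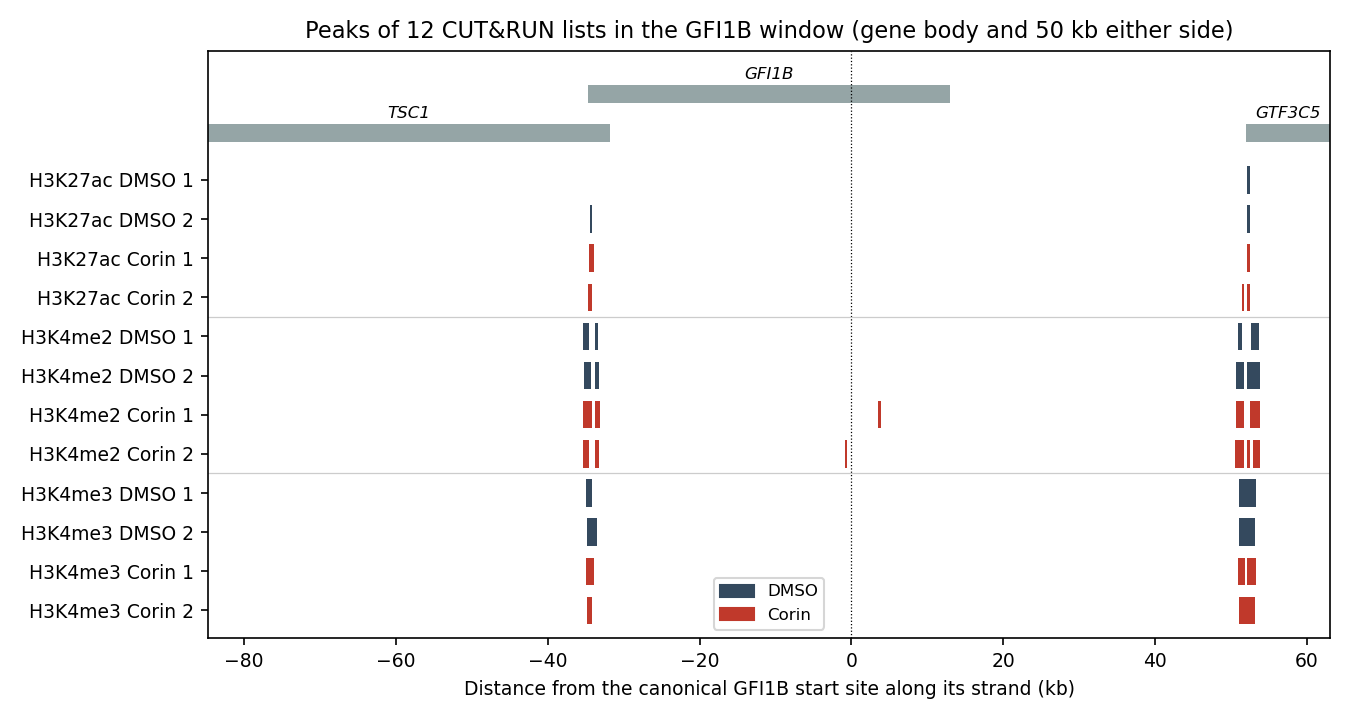
Peaks of the 12 lists in the GFI1B window, drawn as for GFI1, with distance in kb from the canonical GFI1B start (x axis). Peaks gather at the starts of TSC1 and GTF3C5, and the 2 isolated H3K4me2 peaks near the GFI1B start belong to different Corin replicates.

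Neither isolated peak was seen in both Corin libraries. The score, a whole number per peak that the authors deposited without a definition and that starts at 50 in each list, was 238 for the 210 bp peak and 58 for the 315 bp peak. Within 1 kb of its canonical start, the 210 bp peak was the sole GFI1B peak of any mark. Of the 20007 genes, 280 (1.40%) had a peak there in exactly 1 of the 12 lists, and for 174 of these (62.1%) the list was a Corin list. A further 7154 genes (35.8%) had none. Of the lineage markers, GATA1, KLF1 and TAL1, factors that work beside GFI1B in erythroid cells, also had no H3K4me3 peak at the start, where 47.6% of all genes had none.

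**Figure D3:**
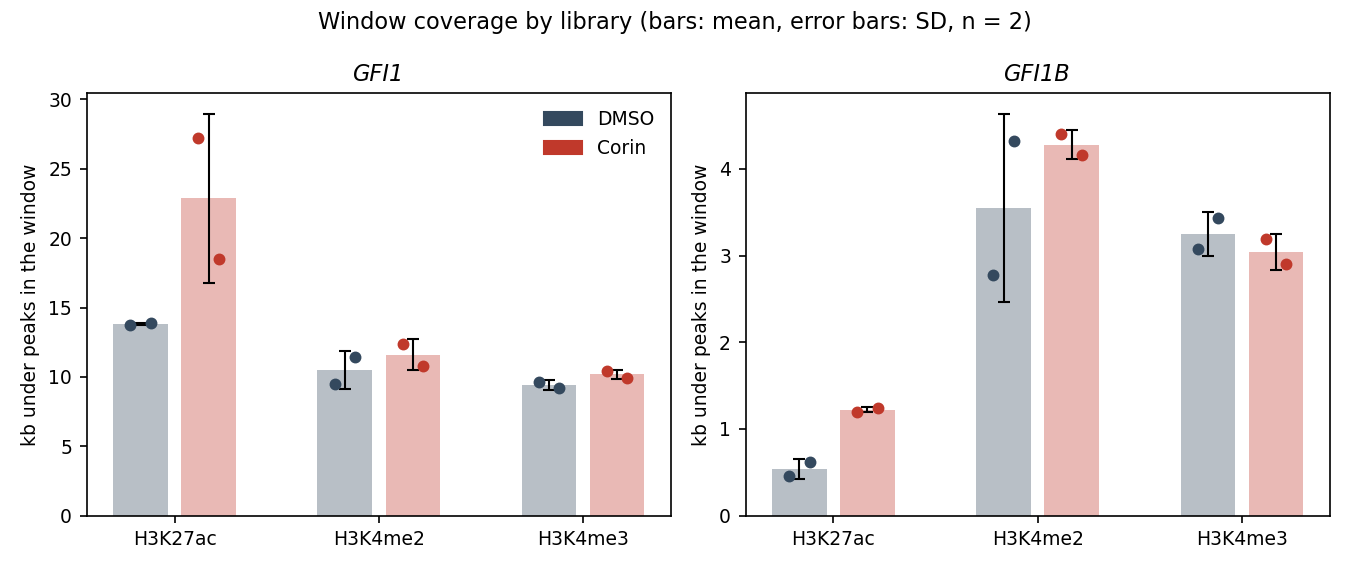
Kilobases under peaks in the GFI1 window (left) and the GFI1B window (right) for each mark (x axis). Points are libraries, bars the mean and error bars the SD of 2 libraries per group, and the y axes differ. Both Corin points lie above both DMSO points for H3K27ac at both genes and for H3K4me3 at GFI1.

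GFI1 H3K27ac coverage was 22859 ± 6118 bp after Corin and 13812 ± 72.1 bp after DMSO (SD, n = 2 each), 1.66-fold higher, and the difference of 9047 bp had an SD of 6118 bp. The SD of a difference, here and below, is the square root of the summed group variances. It describes differences between single libraries and is not the error of the difference of means. An exact two-sided permutation test gave p = 0.333, the smallest value that 2 libraries against 2 allow. The 2 other marks differed by less: H3K4me2 by 1137.5 bp with an SD of 1774 bp, which is within the spread of the libraries (exact permutation p = 0.667), and H3K4me3 by 752.5 bp with an SD of 485.5 bp (exact permutation p = 0.333). For GFI1B the H3K27ac means were 1220 ± 29.7 bp and 542 ± 114.6 bp (SD, n = 2 each), a difference of 678 bp with an SD of 118 bp (exact permutation p = 0.333). Its H3K4me2 difference was 729 bp with an SD of 1101 bp and its H3K4me3 difference -208 bp with an SD of 326 bp, both inside the spread (exact permutation p = 0.667 each).

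Separation of the groups was common across the genome. Both Corin lists exceeded both DMSO lists for H3K27ac at 72.3% of 15321 genes with any coverage, and for H3K4me3 at 31.4% of 14764. The opposite separation was found at 0.385% and 7.04%. For H3K4me2 the share was 57.4% of 17293 genes, with 1.34% in the opposite direction, and GFI1 and GFI1B were in neither set.

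A limma fit over all genes with a mean of at least 200 bp, on log2(bp + 500), gave the change with a shared estimate of error. Fold changes on this scale understate those of genes with little coverage. For H3K27ac the log2 change was 0.68 ± 0.25 (SE) at GFI1 (limma, Benjamini-Hochberg adjusted p = 0.0574) and 0.73 ± 0.41 at GFI1B (adjusted p = 0.169), so neither passed 0.05, while 29.9% of 14205 genes did, all of them higher after Corin. For H3K4me2 it was 0.14 ± 0.14 at GFI1 (adjusted p = 0.505) and 0.26 ± 0.20 at GFI1B (adjusted p = 0.403), where 15.2% of 16884 genes passed as higher and 0.0118% as lower. For H3K4me3 it was 0.11 ± 0.059 at GFI1 (adjusted p = 0.663) and -0.08 ± 0.094 at GFI1B (adjusted p = 0.848). There 0 of 14417 genes passed (0%), and 1356 had an unadjusted p under 0.05.

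On the log2 scale the median gene had an H3K27ac change of 0.75, an H3K4me2 change of 0.22 and an H3K4me3 change of 0.06. Relative to that median, GFI1 stood at -0.07, -0.08 and 0.05, and GFI1B at -0.02, 0.04 and -0.14. GFI1 H3K27ac therefore lay at percentile 43.7 of the 14205 genes tested and GFI1B at 47.9. With each library centred on its own median, the H3K27ac changes became -0.10 and -0.05 and the H3K4me2 changes -0.12 and -0.0046, so the sign of these 4 changes depends on the scaling, and the genes called fell from 4243 to 2 for H3K27ac. List length moved with the treatment as well, and with the number of peaks matched the GFI1 H3K27ac change was 0.64 and the GFI1B one 0.27. The H3K4me2 changes were then -0.078 at GFI1, with the sign turned, and 0.15 at GFI1B.

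**Figure D4:**
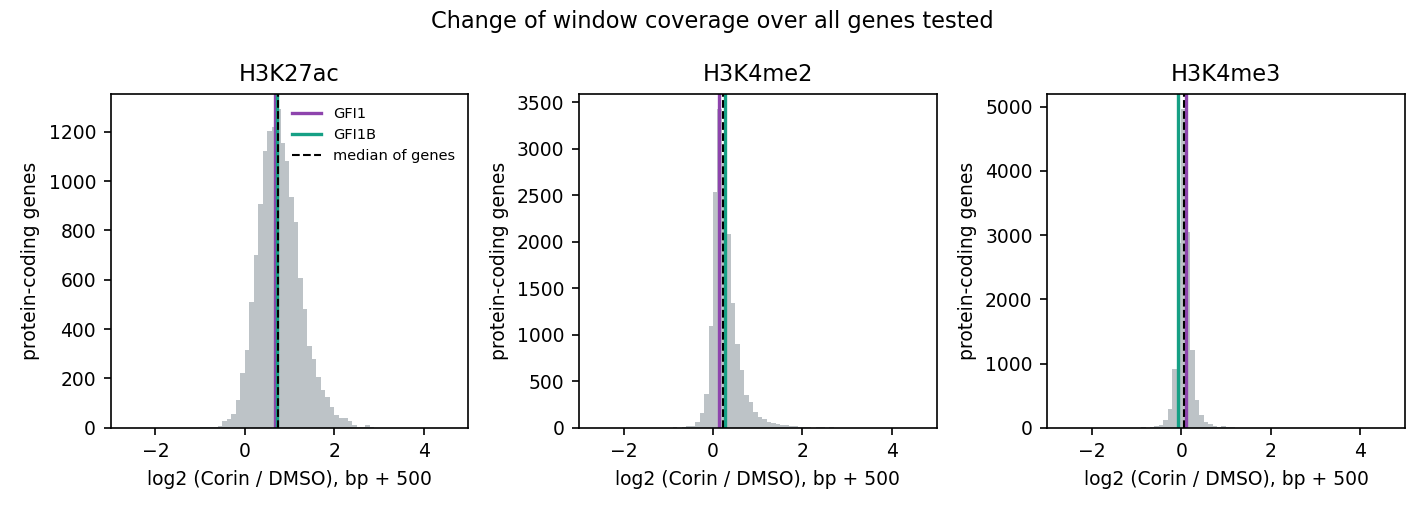
Number of protein-coding genes (y axis) by log2 change of window coverage, Corin over DMSO with 500 bp added (x axis), for each mark. Coloured lines are GFI1 and GFI1B and the dashed line is the median gene; for H3K27ac both genes lie beside the median at 0.75.

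Window totals do not show how the marks were laid out over GFI1. There, H3K4me3 formed a broad block over the start and most of the gene. Its main peak measured 10426 and 9327 bp after Corin, against 9294 and 8863 bp after DMSO, and it ranked 2 or 3 by width among all peaks of its list in each of the 4. The interval common to all 4 lists ran from 92478888 to 92487583, and its 8696 bp ranked 2 of 11020 such H3K4me3 cores.

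Over this core H3K27ac cover was higher and H3K4me2 cover lower in both Corin lists than in both DMSO lists. H3K27ac covered 100% of the core in both Corin lists and 74.6% and 83.9% in the DMSO lists. H3K4me2 covered 24.1% and 33.5% after Corin and 40.2% and 68.5% after DMSO. The Corin lists thus had an unbroken block of H3K27ac and at most 33.5% of H3K4me2. In base pairs, H3K4me2 covered 4729 ± 1741 after DMSO and 2504.5 ± 572 after Corin (SD, n = 2 each), a difference of -2224.5 bp with an SD of 1832 bp (exact permutation p = 0.333), and without DMSO replicate 2 the difference was -993.5 bp. H3K27ac covered 6894.5 ± 572 bp after DMSO and all 8696 bp after Corin, a difference of 1801.5 bp with an SD of 572 bp (exact permutation p = 0.333). The core was chosen after the peaks had been seen.

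The same directions were frequent at other wide cores. Among the 93 H3K4me3 cores of at least 4000 bp, H3K4me2 cover was lower in both Corin than in both DMSO lists at 40 (43%) and higher at 1 (1.08%), and H3K27ac cover was higher at 68 (73.1%) and lower at 0 (0%). The median core had 66.5% and 60.7% of its length under H3K4me2 after Corin and 71.2% and 77.0% after DMSO. In each library the GFI1 core thus had less H3K4me2 and more H3K27ac than the median wide core. The highest of the 4 medians for H3K27ac was 78.0%, in Corin replicate 1.

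**Figure D5:**
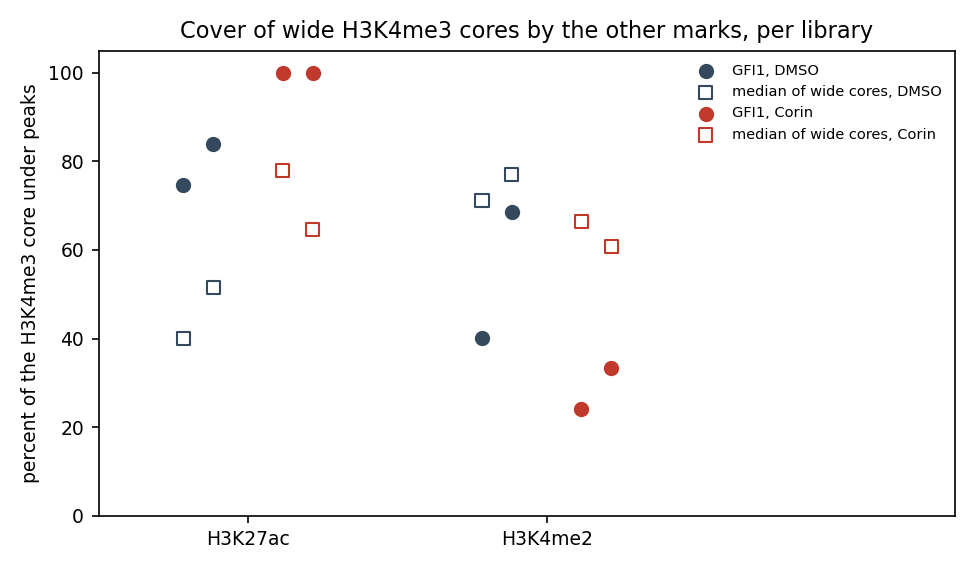
Percent of the H3K4me3 core under H3K27ac and H3K4me2 peaks (y axis) in each library, for GFI1 (filled circles) and for the median of 93 wide cores (open squares). GFI1 sits above the median for H3K27ac and below it for H3K4me2, and for H3K4me2 its Corin points lie below its DMSO points.

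Within the core, H3K4me2 at the internal promoter was called after DMSO alone. The internal promoter printed above was wholly under H3K4me2 in both DMSO lists, 300 and 300 bp, and at 0 in both Corin lists, while H3K27ac and H3K4me3 covered all 300 bp in each of their 4 lists. The DMSO peaks there spanned 1572 bp (92483508 to 92485079) and 2090 bp (92483260 to 92485349). They were not strong peaks, ranking 21383 of 30896 and 20611 of 32299 by score. Of 5656 RefSeq promoters wholly under H3K4me3 in all 4 lists, 11 (0.194%) had this pattern, GFI1 among them, and 0 (0%) the reverse. Over all 35116 promoters the shares were 0.0484% and 0.114%. The pattern restates the values of this GFI1 promoter, so its place among the 11 was fixed beforehand and tests nothing. The other GFI1 promoters did not have the pattern. The others of the 11, named after their values were seen, were those of CXCR4, the chemokine receptor of marrow homing, CCNG2, KIF9, VIM-AS1, PPP2R3C, ERH, SLC39A9, MBTD1, JPT1 and SUGP2, of which ERH and SLC39A9 have overlapping promoters.

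Within 1 kb of the start at 92483954, inside this promoter, H3K4me2 covered 0 and 407 bp after Corin, against 1447 and 1695 bp after DMSO. Around the start at 92484682 it covered 0 and 0 bp, against 1398 and 1668 bp, and around that at 92484960 0 and 0 bp, against 1120 and 1608 bp. The groups were separate at these 3 starts and overlapped at the starts nearer the canonical one and at 92480485. At 92486097 the values were 0 and 296 bp after Corin, against 142 and 1358 bp after DMSO. The share of all start sites separated in this direction was not computed. Within 1 kb of the canonical start it covered 768 and 1124 bp after Corin, against 970 and 1715 bp after DMSO, and the groups overlapped. Over the 300 bases of the canonical promoter printed above it covered 18 and 164 bp after Corin, against 220 and 300 bp after DMSO, without overlap, and the share of promoters separated in this way was not computed. In the 50 kb upstream of the gene the order was the opposite: H3K4me2 covered 4064 and 3951 bp after Corin, against 2899 and 3171 bp after DMSO, without overlap, where whole windows were separated in this direction at 57.4% of genes. Over the gene body the H3K4me2 groups overlapped, at 7134 and 6096 bp against 5935 and 8026 bp.

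H3K27ac peaks over the gene body were fewer and wider after Corin. There were 2 and 4 after Corin, covering 13109 and 10928 bp of the 13883 bp gene, and 8 and 6 after DMSO, covering 7743 and 8343 bp. The widest measured 12435 and 9918 bp after Corin, against 2284 and 7051 bp after DMSO. By width they ranked 3 of 34424, 3 of 30029, 318 of 17599 and 2 of 19995. The DMSO replicate 2 peak was thus also among the widest of its list, although peaks over the gene were broken up in both DMSO lists, and more so in replicate 1. Both Corin lists exceeded both DMSO lists over whole windows at 72.3% of genes, and the share for gene bodies was not computed.

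Away from the gene, the GFI1 window had clusters with H3K27ac and H3K4me2 but no H3K4me3 in any list. On either side of the gene 1 of them was present in all 8 lists of these marks. A smaller one just past the gene end (92471100 to 92471570) had H3K27ac in Corin replicate 1 (212 bp) and H3K4me2 in Corin replicate 1 (297 bp) and DMSO replicate 1 (318 bp). The upstream cluster, from 92514264 to 92517613, lies in an intron of EVI5, a gene whose own start is outside the window. H3K27ac covered 2506 and 1945 bp of it after Corin, against 1408 and 2192 bp after DMSO, with overlap. H3K4me2 covered 1033 and 627 bp after Corin, against 449 and 402 bp after DMSO, without overlap. The 204 bases common to all 8 lists of these marks lie from -29120 to -28917 bp relative to the GFI1 start.

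The downstream cluster, from 92456339 to 92466468, is intergenic and lies 20457 to 30586 bp from the start, beyond the end of the gene. H3K27ac covered 7861 and 4307 bp there after Corin, against 3742 and 2483 bp after DMSO. H3K4me2 covered 913 and 499 bp after Corin, against 353 and 250 bp after DMSO. Both marks were higher in both Corin lists, with Corin replicate 1 well above the rest. Whole windows were separated in this direction at 72.3% of genes for H3K27ac and 57.4% for H3K4me2, and the share among single clusters was not computed, here or for the EVI5 cluster. The single GFI1 region with H3K4me2 peaks in both Corin and no DMSO list lay here (92460266 to 92460861, 573 and 499 bp), where 9.64% of all 42421 H3K4me2 regions had that pattern. For H3K27ac and H3K4me3, where neither gene had such a region, the share was 11.5% and 1.5%. The peaks of the H3K4me2 region had scores of 144 and 51, and it was not called at a matched number of peaks. These counts depended on single libraries: without Corin replicate 1 or 2, GFI1 had 4 or 6 such regions for H3K27ac and 4 or 3 for H3K4me2, and 1 for H3K27ac without DMSO replicate 1. With presence defined as 50% covered it had 2 for H3K4me2. For H3K4me3 GFI1 had 1 without Corin replicate 1. GFI1B had 1 for H3K27ac without Corin replicate 1, without DMSO replicate 2 or with presence defined as 50% covered, and 1 for H3K4me2 without either Corin replicate.

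Across the windows, 13 H3K27ac, 13 H3K4me2 and 2 H3K4me3 regions (the lists of a mark merged) lay at GFI1, and 4, 3 and 1 of them were present in all 4 lists. At GFI1B there were 3, 6 and 2, with 1, 4 and 2 in all lists. No region of either gene had peaks in both DMSO and no Corin list when any overlap of at least 1 bp counted, where 0.18%, 0.158% and 0.29% of all regions did. With only peaks of a score of at least 100, or with presence defined as 50% covered, 1 GFI1 H3K4me2 region did, and with the number of peaks matched 2 did. Leaving out any 1 H3K4me2 library also gave 1, as did leaving out Corin or DMSO replicate 1 of H3K27ac for that mark.

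The marks also shared bases. At GFI1, 100% and 95.4% of H3K4me3 bases were also under H3K27ac after Corin, in replicates 1 and 2, and 70.7% and 82.7% after DMSO. The share under H3K4me2 was 36.7% and 41.7% after Corin and 46.2% and 70.2% after DMSO. In the GFI1B window, where these bases lie in the clusters at TSC1 and GTF3C5, the share under H3K27ac was 37.6% and 42.8% after Corin and at most 18.2% after DMSO, and the share under H3K4me2 overlapped between the groups. These shares were computed for the 2 genes alone, and H3K27ac cover was higher after Corin at 73.1% of wide H3K4me3 cores.

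Neighbours share coverage with the members. EVI5 H3K27ac had a log2 change of 0.70 (limma adjusted p = 0.0517), and its window takes in the GFI1 block. TSC1 had one of 0.90 (limma adjusted p = 0.127) and GTF3C5 one of 0.70 (limma adjusted p = 0.138), so none of the 3 passed 0.05. Of all 14205 genes tested, 29.9% did.

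The genes most like each member by coverage in all 12 lists were found by the root mean square difference of log2(bp + 500), over genes on other chromosomes. For GFI1 they were BCL2, an inhibitor of apoptosis (0.26), DENND10 (0.27) and the ETS factor ELF2 (0.27). BCL2 H3K27ac covered 25947 and 20552 bp after Corin, against 12116 and 11985 bp after DMSO. For GFI1B they included ZNF316 (0.20) and FAM161A (0.21). These genes were picked by closeness in the same 12 lists, so this is a description of levels.

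Other genes of the pathway were taken from lists set up with earlier results of these data known. Of 15 SNAG-domain and LSD1-CoREST genes, 14 were tested for H3K27ac, where 5 rose by limma at adjusted p under 0.05 and 0 fell, where 29.9% of all genes tested rose, with a median log2 change of 0.64 against 0.75 for all genes. With libraries centred on their median, 0 of the 14 passed, where 2 of all 14205 genes did. HMG20B, a CoREST-associated HMG protein, covered 5978 and 5516 bp after Corin, against 1444 and 2069 bp after DMSO, a log2 change of 1.48 ± 0.32 (SE, limma adjusted p = 0.0106). RCOR2, a CoREST scaffold, HDAC1 and the SNAG repressor SNAI3 also rose. For H3K4me2, 3 of 15 rose and 0 fell, where 15.2% of all genes rose. The 3 had log2 changes of 1.63 (SNAI2), 0.98 (SNAI1, a SNAG repressor of epithelial genes) and 0.92 (KDM1A, which encodes LSD1). For SNAI2 both DMSO lists were at 0 and the Corin lists at 1220 and 892 bp, so its value depends on the 500 bp added. The median of the list was 0.24 against 0.22 for all genes, and these 3 also passed with libraries centred, as did 681 of all 16884 genes in the higher direction. For H3K4me3, 0 of 13 passed.

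Of 20 genes described as GFI1 or GFI1B targets, 17 were tested for H3K27ac and 10 rose, with 0 falling, where 29.9% of all genes rose, at a median log2 change of 1.09 against 0.75 for all genes. ITGAM, the myeloid integrin CD11b, covered 5313 and 4978 bp after Corin, against 873 and 296 bp after DMSO (log2 change 2.43 ± 0.38, limma adjusted p = 0.00647). CSF1R, the macrophage colony-stimulating factor receptor, covered 13433 and 13094 bp after Corin, against 3794 and 3991 bp after DMSO (log2 change 1.65 ± 0.26, limma adjusted p = 0.00644). With libraries centred, 0 of the 17 passed for H3K27ac, where 2 of all 14205 genes passed (1703 at an unadjusted p under 0.05).

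For H3K4me2, 8 of the 20 target genes rose and 0 fell, where 15.2% of all genes rose, at a median of 0.30 against 0.22. CD86, a co-stimulatory ligand, covered 9435 and 7242 bp after Corin, against 2051 and 3354 bp after DMSO (log2 change 1.48 ± 0.20, limma adjusted p = 8.81e-05). CD86, CEBPE, CSF1R, ITGAM and SOCS1 were still called with libraries centred, where 681 of 16884 genes were called higher. For H3K4me3, 0 of 13 passed, and SPI1, which encodes PU.1, had a log2 change of 0.41 (limma adjusted p = 0.238). The counts of both lists rest on having both Corin libraries and on the settings. With the number of peaks matched, scores of at least 100 or the gene body alone, limma called 0 genes for H3K27ac. There 2719, 5186 and 2403 genes had an unadjusted p under 0.05. For H3K4me2 the same settings gave 133, 786 and 0 genes, with 2285 unadjusted over the gene body. Without Corin replicate 1, limma called 0 genes for H3K27ac and 0 for H3K4me2, with 1853 and 1869 at an unadjusted p under 0.05. Without Corin replicate 2 it also called 0 and 0, with 3592 and 3477 unadjusted.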

How the data were processed

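CUT&RUN peak lists of 12 MOLM-13 libraries were used, and each list belongs to a single library. Per the submitters' processing notes, Trim Galore, Bowtie2, Picard and MACS2 were used with GRCh38 (hg38). Their order, the control and the threshold are not given in the sources used here. The score the authors deposited with each peak is a whole number without a stated definition, and served here for ranks and a stricter selection inside each list. All 292523 peaks lay within the hg38 chromosomes, and no list held overlapping peaks.

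Base pairs under peaks were summed per library over the gene body and 50 kb either side for 20007 protein-coding genes. Changes were fitted per mark with limma 3.58.1 (R 4.3.3, empirical Bayes with trend) on log2(bp + 500), for genes with a mean of at least 200 bp, two-sided, with Benjamini-Hochberg adjustment. The script was tested on simulated data. Single values were compared with exact permutation tests (scipy 1.17.1). Gene lists, promoter motifs and the naming rule (members, neighbours, the 3 most alike genes, and up to 4 list members per mark by size of change) were, like the members, chosen with earlier results of these data known. Deviations of same-numbered Corin and DMSO libraries correlated at 0.297, 0.293 and 0.264 over genes for H3K27ac, H3K4me2 and H3K4me3, so a fit with the number as a block was run as an alternative beside the reported unpaired tests. What same-numbered libraries have in common is not stated in the labels. Alternatives were a matched number of peaks, scores of at least 100, flanks of 10 kb or none, 100 bp added, no filter, median centring, a replicate block and each library left out. One gene that the naming rule selects is not reported here.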

Additional observations from a re-analysis of the deposited data

How the results depend on the processing

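Neither GFI1 nor GFI1B passed 0.05 in limma for any mark under any alternative run. The direction was kept for H3K27ac and H3K4me3 at both genes, except for H3K27ac with libraries centred on their median (-0.10 at GFI1, -0.050 at GFI1B). For H3K4me2 it turned at GFI1 with the number of peaks matched (-0.078), over the gene body alone (-0.062) and with libraries centred (-0.12), and at GFI1B with libraries centred (-0.0046) and without DMSO replicate 1 (-0.012); the cause was not tested. The replicate block left each log2 change as it was, with GFI1 H3K27ac at 0.68 (limma adjusted p = 0.0687) and GFI1 H3K4me3 at 0.11 (limma adjusted p = 0.540), and changed no call of either gene. Without 1 library, GFI1B H3K4me2 ranged from -0.012 to 0.54, GFI1 H3K4me2 from 0.017 to 0.27, GFI1B H3K4me3 from -0.15 to -0.013 and GFI1 H3K27ac from 0.41 to 0.95.

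The number of genes called by limma was less stable. For H3K27ac it was 4243, against 885 with 10 kb flanks, 2015 with 100 bp added, 54 without the filter, 2 with libraries centred, and 0 with the number of peaks matched, with the stricter score or over the gene body alone, where 2719, 5186 and 2403 genes had an unadjusted p under 0.05. For H3K4me2 it was 2574 (2572 higher, 2 lower), against 133 with the number matched, 786 with the stricter score, 415 with 10 kb flanks, 49 without the filter, 717 with libraries centred (681 higher, 36 lower) and 0 over the gene body alone (2285 unadjusted). For H3K4me3 it was 0 (1356 unadjusted) and 17 without the filter. Leaving out 1 library gave 0 to 5084 genes for H3K27ac (0 without either Corin library, 1772 without DMSO replicate 1) and 0 to 3379 for H3K4me2 (0 without either Corin library, 716 without DMSO replicate 1). The GFI1 difference in H3K4me2 over the H3K4me3 core, whose alternatives were added after seeing the data, ranged from -3455.5 to -993.5 bp without 1 library, and was -2770 bp with the number matched. The lists give no read depth, so no interval for counting error can be given.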
